A study of Mus musculus with 6 samples.

Results

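The 10 genes described here encode factors of spermatogonial stem cells: the receptor pair Gfra1 and Ret, the transcription factors Zbtb16, Sall4, Foxo1, Etv5 and Id4, and the RNA-binding proteins Lin28a, Nanos2 and Nanos3. They were chosen by name for their known role, with earlier results of these data known. All 10 are among the 25771 genes measured. For each gene the level in CPM (the gene's share of all counted transcripts of a cell class in a library, scaled to the same total) and the share of cells with at least 1 transcript were taken in every library and deposited cell class. Single cells from enzyme-dissociated testes of adult C57BL6 mice were sequenced, with 3 libraries of the NONO deltaER genotype and 3 of the NONO genotype. NONO is a nuclear protein that binds RNA and DNA. What the deltaER allele removes or changes, and whether a library holds 1 animal or pooled animals, is not stated in the labels. No treatment is named. The counted units are unique molecular identifiers (UMI), 1 per captured transcript, tagged near the 3′ end.

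Spermatogonial stem cells lie on the basement membrane of the seminiferous tubule and either renew themselves or enter differentiation. Sertoli cells secrete GDNF, which binds the GPI-anchored co-receptor GFRA1 and thereby activates the receptor kinase RET. GDNF signalling raises expression of Etv5 and Id4, while ZBTB16 (PLZF), SALL4, FOXO1, LIN28A and the NANOS proteins mark or maintain the undifferentiated pool. Cells that leave that pool lose these factors and gain the receptor kinase KIT and STRA8, the factor that retinoic acid induces before meiosis.

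Promoter sequence is shown for the 2 members with a RefSeq window among those whose levels did not overlap between the genotypes (Foxo1 and Lin28a), and for Id4, whose class profile departed most from theirs. Each is the part of RefSeq's window (GRCm38.p6) upstream of the gene's annotated starts, read 5′ to 3′ on the gene's strand, with CG dinucleotides in capitals. Foxo1 is chr3:52268087-52268335 on the plus strand, Lin28a is chr4:134018842-134019066 on the minus strand, and Id4 is chr13:48260866-48261115 on the plus strand.
Foxo1: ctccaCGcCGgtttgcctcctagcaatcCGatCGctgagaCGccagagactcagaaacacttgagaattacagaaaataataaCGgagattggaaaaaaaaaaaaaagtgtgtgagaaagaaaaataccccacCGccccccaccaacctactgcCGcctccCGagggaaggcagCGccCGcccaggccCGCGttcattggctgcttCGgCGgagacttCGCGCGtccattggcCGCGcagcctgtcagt
Lin28a: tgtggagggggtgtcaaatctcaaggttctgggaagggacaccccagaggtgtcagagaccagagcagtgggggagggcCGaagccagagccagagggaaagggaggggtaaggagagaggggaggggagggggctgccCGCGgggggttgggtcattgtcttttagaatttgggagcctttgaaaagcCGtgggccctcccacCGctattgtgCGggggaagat
Id4: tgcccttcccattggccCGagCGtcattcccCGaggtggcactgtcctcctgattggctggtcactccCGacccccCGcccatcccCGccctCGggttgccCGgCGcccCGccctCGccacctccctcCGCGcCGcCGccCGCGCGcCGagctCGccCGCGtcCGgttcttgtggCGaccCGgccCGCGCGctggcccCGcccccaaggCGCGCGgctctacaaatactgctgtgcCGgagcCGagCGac
The Foxo1 window had 20 CG dinucleotides, a number that 17.9% of 32851 windows of the same length reached. The Id4 window had 35, reached by 2.97% of windows. The Lin28a window had 7, of which 6 are in the stretch shown, and 46.3% of windows had as many. The median over all windows was 6. A search of both strands found the GC box GGGCGG 2 times in the Foxo1 window and 5 times in the Id4 window, and CCAAT 3 times and 2 times, and neither in the Lin28a window. GGGCGG is in 32.7% and CCAAT in 33.8% of all windows. The ETS site CCGGAAG and the E-box CACGTG, which are in 6.91% and 6.02% of all windows, were in none of the 8 windows of 7 members searched. The forkhead site GTAAACA, in 3.17% of all windows, was in 1 window of Etv5. These matches describe letters only.

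The matrix holds 46495 cells of 17 deposited classes. Libraries ranged from 6261 to 8909 cells and from 81042216 to 110018960 UMI. The deposited cell table names the genotypes KI and WT, read here as NONO deltaER (libraries TD, TE and TF) and NONO (libraries TA, TB and TC). If that reading were wrong, every direction between genotypes would turn round. Library values are given in the order TD, TE, TF and TA, TB, TC. The labels do not say that the libraries of a genotype are different animals, and the p-values therefore cover only library-to-library spread, which may be technical. In all, 650 cell barcodes occur in more than 1 library, which touches 2.82% of cells. Undifferentiated spermatogonia numbered 251, 260 and 332 cells in NONO deltaER libraries, against 281, 214 and 165 in NONO libraries. They are 1503 of all cells (3.23%) and hold 1.21% of all UMI. Of 11 measured markers of this class other than the 10 members, 8 were highest in it, among them Dmrt1, Uchl1 and Sox3. Lhx1, Bcl6b and Dazl were higher elsewhere. Of 8 markers of differentiating spermatogonia 2, Sohlh1 and Dnmt3b, were also highest in this class. Kit and Stra8 had 174 and 216 CPM in it and were higher elsewhere. Class names are the deposited ones. In the class named differentiated spermatogonia Stra8 was at its highest (960 CPM), as were the early spermatocyte markers Dmc1 (705 CPM) and Prdm9 (532 CPM).

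The members' mean CPM was highest in undifferentiated spermatogonia for 8 of 10 genes. Id4 and Etv5 were the exceptions. Which genes the depositors used to name the classes is not stated in the labels, so the order of classes is a description with no test. The share of a gene's RNA that came from that class differed widely among the members. Over all libraries together Sall4 drew 95.5% of its UMI from it (89.5 to 98.3% by library), Lin28a 76.4% (61.1 to 83.3%), Ret 64.8% (42.9 to 76.1%) and Zbtb16 60.3% (44.5 to 75.6%). Foxo1 drew 39.5% (24.7 to 46.1%), a range that overlaps those of Ret and Zbtb16. Etv5 drew 17.5% (11.2 to 25.7%), Gfra1 16.5% (7.57 to 29.0%), Nanos3 6.52% (3.15 to 12.4%) and Id4 0.844% (0.211 to 1.54%). Nanos2 had too few UMI for a share.

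**Figure D1:**
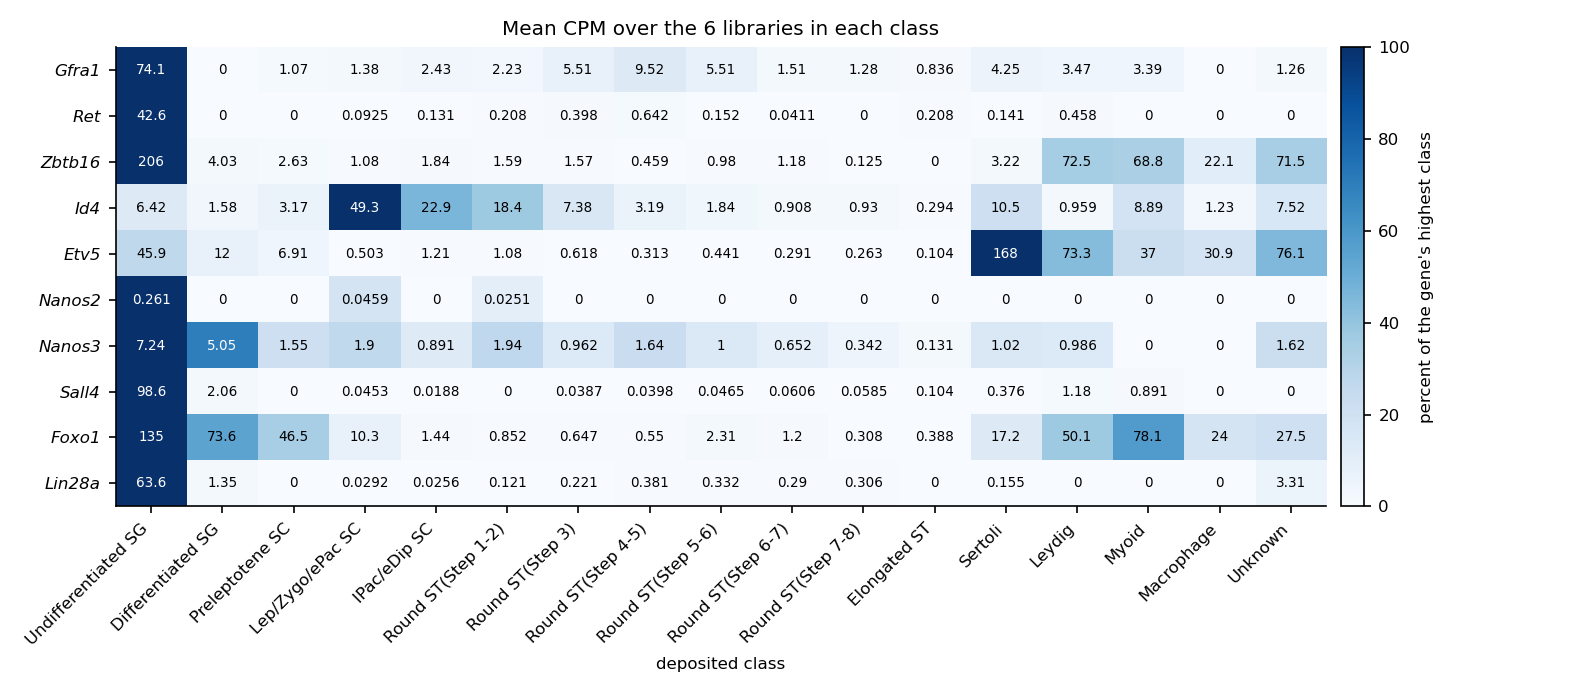
Mean CPM of the 10 members (rows) in the 17 deposited classes (columns), averaged over the 6 libraries. The colour gives the level as a percent of the gene's own highest class. Ret, Sall4 and Lin28a are dark in undifferentiated spermatogonia alone, while Id4 is highest in leptotene to early pachytene spermatocytes (49.3 CPM) and Etv5 in Sertoli cells (168 CPM).

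Among the receptors, Ret was the more restricted. Ret (mm10, as for all gene positions here, chromosome 6 at 118151745 to 118197718, minus strand) averaged 42.6 CPM in undifferentiated spermatogonia, with libraries from 29.9 to 61.4 CPM. Its next class, round spermatids of steps 4-5, had 0.642 CPM, and its libraries overlap those of the following class. Ret had no UMI in differentiated spermatogonia, preleptotene spermatocytes, steps 7-8, myoid cells, macrophages and the class named Unknown. Gfra1 (chromosome 19 at 58235604 to 58455909, minus strand) averaged 74.1 CPM in undifferentiated spermatogonia, from 43.4 to 134 CPM. Round spermatids of steps 4-5 came next with 9.52 CPM, from 8.19 to 12.7 CPM, apart from both the class above and the class below. Steps 5-6 and step 3 had 5.51 CPM each and their libraries overlap. Differentiated spermatogonia and macrophages had no Gfra1 UMI, and the other 11 classes had means from 0.836 to 4.25 CPM. The class with the highest Gfra1 CPM thus held 512 of 3096 Gfra1 UMI, and the other UMI came from other classes, round spermatids included.

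Sall4, Lin28a and Zbtb16 had a clear gap to their next germ cell class. Sall4 (chromosome 2 at 168748332 to 168767943, minus strand), a zinc finger factor of pluripotent and germ cells, averaged 98.6 CPM in undifferentiated spermatogonia, from 66.1 to 138 CPM. Its next class, the one named differentiated spermatogonia, had 2.06 CPM, from 0 to 5.6 CPM. Lin28a (chromosome 4 at 134003330 to 134018841, minus strand), which binds RNA and blocks maturation of let-7 microRNAs, averaged 63.6 CPM, from 46.6 to 92.6 CPM. The class named Unknown followed with 3.31 CPM, all of it from library TE. Zbtb16 (chromosome 9 at 48654297 to 48836222, minus strand), a zinc finger repressor needed for stem cell renewal, averaged 206 CPM, from 160 to 271 CPM. It was also present in the somatic interstitium, with 72.5 CPM in Leydig cells, 71.5 CPM in the class named Unknown and 68.8 CPM in myoid cells, whose libraries overlap each other. Differentiated spermatogonia had 4.03 CPM of Zbtb16.

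Foxo1, Nanos3 and Nanos2 showed less contrast. Foxo1 (chromosome 3 at 52268336 to 52353221, plus strand), a forkhead factor held out of the nucleus by PI3K and AKT signalling, averaged 135 CPM in undifferentiated spermatogonia, from 97.1 to 180 CPM. Myoid cells had 78.1 CPM, differentiated spermatogonia 73.6 CPM, Leydig cells 50.1 CPM and preleptotene spermatocytes 46.5 CPM, and each of these overlaps the class before it. Leptotene to early pachytene spermatocytes had 10.3 CPM, and Foxo1 lay between 0.308 and 2.31 CPM in the later germ cell classes. Nanos3 (chromosome 8 at 84173731 to 84185217, minus strand), an RNA-binding repressor of germ cells, had 7.24 CPM in undifferentiated and 5.05 CPM in differentiated spermatogonia, with libraries that overlap. Nanos2 (chromosome 7 at 18987400 to 18988962, plus strand), its relative that holds stem cells in the undifferentiated state, was at the limit of detection. It had 5 UMI in the whole data set, 2 of them in undifferentiated spermatogonia, from 2 cells of 1503 (0.133%, exact binomial 95% interval 0.0161 to 0.480%, counting error only).

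Etv5 and Id4, the 2 members downstream of GDNF, were not highest in undifferentiated spermatogonia. Etv5 (chromosome 16 at 22381309 to 22439719, minus strand), an ETS factor, averaged 168 CPM in Sertoli cells, from 142 to 194 CPM, where it is known to act in the stem cell niche. The class named Unknown had 76.1 CPM, Leydig cells 73.3 CPM, undifferentiated spermatogonia 45.9 CPM and myoid cells 37.0 CPM, each overlapping the next. Differentiated spermatogonia had 12.0 CPM and preleptotene spermatocytes 6.91 CPM. From there on every germ cell class had 1.21 CPM or less. Id4 (chromosome 13 at 48261228 to 48266026, plus strand), an inhibitor of basic helix-loop-helix factors used as a reporter of stem cell activity, was highest in leptotene to early pachytene spermatocytes with 49.3 CPM, from 39.8 to 56.1 CPM. The next deposited class (IPac/eDip SC) had 22.9 CPM and the class named Round ST(Step 1-2) 18.4 CPM. Undifferentiated spermatogonia ranked 8th of 17 with 6.42 CPM of Id4, from 2.85 to 10.8 CPM, which rests on 45 UMI.

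Shares of positive cells gave the same picture after each cell was thinned to 2000 UMI, which takes depth out of the comparison. Cells under 2000 UMI were left out, which were 27.0% ± 6.71 of the undifferentiated cells in NONO deltaER and 31.8% ± 7.78 in NONO (SD, n = 3 each). A Zbtb16 transcript was found in 23.6% of undifferentiated cells, Foxo1 in 23.8%, Sall4 in 15.95%, Lin28a in 10.0%, Gfra1 in 8.85%, Etv5 in 7.41% and Ret in 7.39% (means over 6 libraries). In elongated spermatids, late germ cells that should lack these factors, the shares at the same 2000 UMI were 0.280% for Gfra1 and 0.119% or less for every other member. Median depth before thinning was 3291 UMI in undifferentiated cells and 2426 UMI in elongated spermatids. Etv5 was found in 22.6% of Sertoli cells, Foxo1 in 15.0% of differentiated spermatogonia and Id4 in 8.33% of leptotene to early pachytene spermatocytes. With cells under 2000 UMI left out, libraries kept 85 to 187 Sertoli cells (148 to 350 before). They kept 26 to 95 differentiated spermatogonia (64 to 141 before). Id4 was found in 1.33% of undifferentiated cells and Nanos3 in 2.41%.

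The genotypes were then compared within undifferentiated spermatogonia, on UMI summed per library. Of the 8 members with enough UMI to be tested, 7 had a fold change above 0 and Nanos3 one below 0. None passed an edgeR adjusted p of 0.05, a threshold that 3 of 11064 genes (0.0271%) passed. DESeq2 also called 0 members, although more genes of the class passed in DESeq2 than in edgeR, as given in the last section. The members' median log2 fold change was 0.45, against 0.01 over all genes tested, and 5 of the 8 had an unadjusted p under 0.05, all higher in NONO deltaER. Over all genes 6.1% met that last mark. A fold change above 0 was found for 51.6% of all genes.

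Foxo1, Lin28a and Zbtb16 had every NONO deltaER library above every NONO library, a separation shown by 14.5% of all tested genes. No member had every NONO deltaER library lower, which 7.4% of genes showed. Foxo1 had 167, 180 and 144 CPM in NONO deltaER libraries, against 116, 97.1 and 104 CPM in NONO libraries. The lowest NONO deltaER library, TF, lay above the highest NONO library, TA, with a log2 fold change of 0.55 ± 0.14 (SE) and an edgeR adjusted p of 0.106. Lin28a had 68.7, 92.6 and 74.7 CPM in NONO deltaER libraries, against 52.1, 46.6 and 47.0 CPM in NONO libraries. Its log2 fold change was 0.61 ± 0.18 with an edgeR adjusted p of 0.133. Zbtb16 had 201, 271 and 234 CPM in NONO deltaER libraries, against 173, 196 and 160 CPM in NONO libraries, where TD and TB lay close together. Its log2 fold change was 0.35 ± 0.14 with an edgeR adjusted p of 0.226.

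Sall4 and Gfra1 had larger or similar fold changes but overlapping libraries. Sall4 had 121, 138 and 98.8 CPM in NONO deltaER libraries, against 68.0, 66.1 and 99.7 CPM in NONO libraries. NONO library TC was as high as NONO deltaER library TF, and the log2 fold change was 0.57 ± 0.18 (edgeR adjusted p = 0.156). Gfra1 had 114, 134 and 49.0 CPM in NONO deltaER libraries, against 43.4, 44.0 and 59.8 CPM in NONO libraries. TD and TE stood apart from all other libraries, while TF lay within the NONO range. The log2 fold change was 0.97 ± 0.35, with an edgeR adjusted p of 0.226 that became 0.00851 without TF (log2 fold change 1.28). Foxo1 likewise passed without TF (adjusted p = 0.0256) and without TA (adjusted p = 0.0447). With no filter on low counts, Gfra1, Foxo1, Sall4 and Lin28a passed at adjusted p of 6.18e-05, 0.00922, 0.0213 and 0.0427. More of all genes also passed under each of these settings, up to 634 with 1 library left out and 825 with no filter. In the fit with all libraries and the filter 3 genes passed.

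Ret, Etv5, Nanos3 and the rare members showed no separation. Ret had 50.6, 61.4 and 32.4 CPM in NONO deltaER libraries, against 41.3, 40.2 and 29.9 CPM in NONO libraries (log2 fold change 0.29 ± 0.25, edgeR adjusted p = 0.605). Etv5 had 56.4, 59.8 and 39.8 CPM in NONO deltaER libraries, against 36.2, 37.6 and 45.6 CPM in NONO libraries (0.34 ± 0.21, edgeR adjusted p = 0.459). In both genes TD and TE were the highest libraries, as for Gfra1. The Ret value was 0.10 without TE, 0.17 without TC, 0.49 without TF, 0.18 with the library set (by mitochondrial share) as covariate and 0.61 with equal numbers of cells. The Etv5 value was 0.17 with that covariate. Nanos3 had 8.68, 5.89 and 3.32 CPM in NONO deltaER libraries, against 6.51, 9.07 and 9.97 CPM in NONO libraries (-0.49 ± 0.47, edgeR adjusted p = 0.655), on 46 UMI in all. The Nanos3 value was -0.88 without TD and -0.23 without TF. Id4 and Nanos2 had too few UMI to be tested. Id4 had 15, 8 and 7 UMI in NONO deltaER libraries, against 8, 5 and 2 UMI in NONO libraries, and both Nanos2 UMI of the class were in NONO deltaER libraries.

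**Figure D2:**
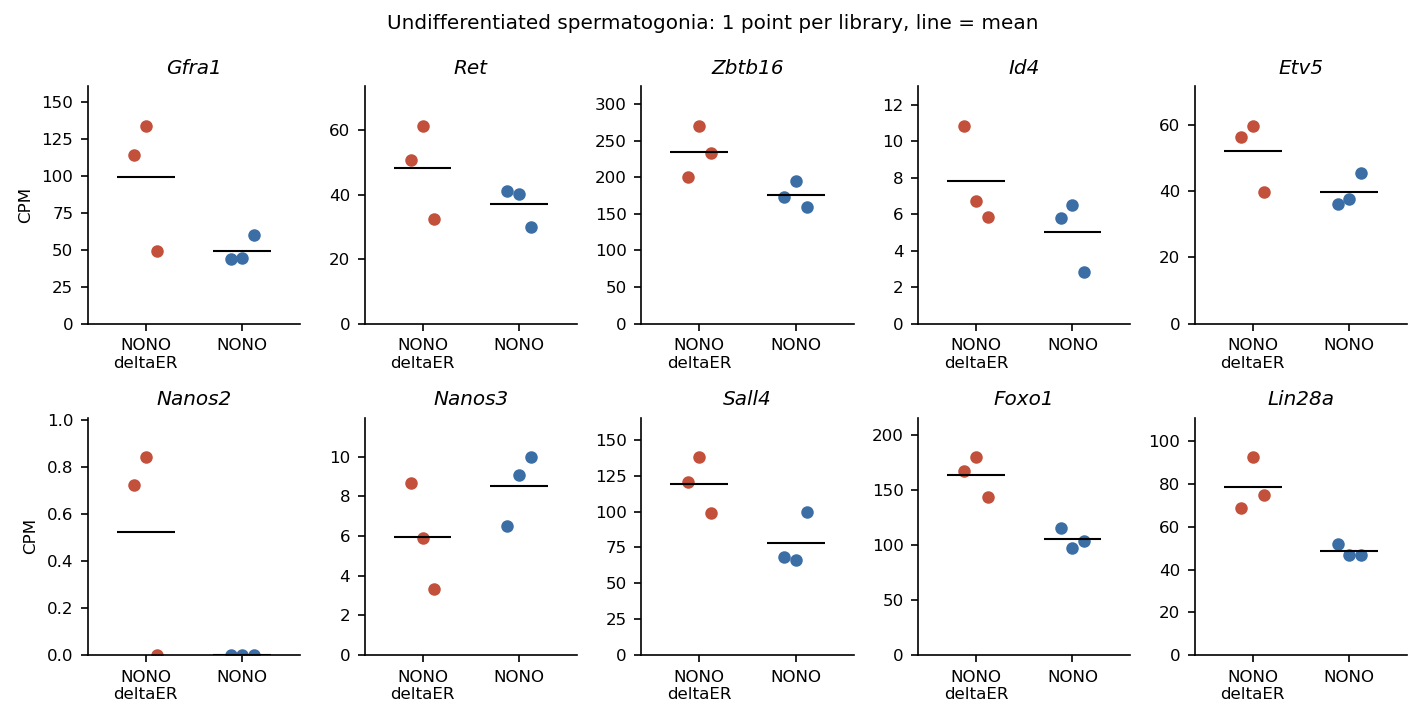
CPM of each member in undifferentiated spermatogonia, with 1 point per library, the 3 NONO deltaER libraries on the left and the 3 NONO libraries on the right, and a line at the mean of each genotype. The points of Foxo1, Lin28a and Zbtb16 do not overlap between genotypes, and for Gfra1 the NONO deltaER libraries TD (114 CPM) and TE (134 CPM) stand apart.

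Markers of this and other cell types were measured in the same cells. The 11 other markers of undifferentiated spermatogonia summed to 0.136% ± 0.0127 of UMI in NONO deltaER and 0.123% ± 0.0122 in NONO (SD, n = 3 each), with overlap. Of the 7 that were tested, 4 had a fold change above 0, and the median log2 fold change was 0.0018. Among 51 other genes at least 5-fold higher in this class than in every other class, 45 (88.2%) were above 0, with a median log2 fold change of 0.22, and 7 had an unadjusted p under 0.05, all higher. Over all genes 51.6% were above 0, and 6.1% had an unadjusted edgeR p under 0.05 and were higher. This set was chosen after the members' values were seen and by levels in these same libraries, so it gives no independent check. Late spermatocyte markers summed to 0.0511% ± 0.0126 in NONO deltaER and 0.0814% ± 0.0212 in NONO (from 0.0432 to 0.0656% in NONO deltaER libraries, against 0.0627 to 0.104% in NONO libraries), and 0 of 4 were above 0 (median log2 fold change -0.55). Spermatid markers summed to 0.670% ± 0.131 in NONO deltaER and 0.665% ± 0.220 in NONO, although 1 of 7 was above 0. Sertoli cell markers summed to 0.00239 to 0.00324% in NONO deltaER libraries, against 0.00142 to 0.00233% in NONO libraries. Leydig, myoid, macrophage and endothelial markers stayed at 0.00191% or less, and none of these lists had a marker at 0. Median UMI per undifferentiated cell was 4408, 3605 and 2675 in NONO deltaER libraries, against 3904, 2675.5 and 2705 in NONO libraries. Their part in the members' differences was not tested.

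The libraries also formed sets by mitochondrial share, with TF, TA and TB higher and TD, TE and TC lower. With this set as a covariate the log2 fold changes were 0.56 for Gfra1, 0.51 for Foxo1, 0.61 for Lin28a, 0.41 for Sall4 and 0.40 for Zbtb16, and edgeR called 0 members. The 2 high Gfra1 libraries, TD and TE, belong to the lower set, as does TC, which had the highest Gfra1 value among the NONO libraries.

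The share of positive cells, thinned to 2000 UMI, separated the genotypes for 1 of 7 members tested. Etv5 was found in 8.5, 11.1 and 7.27% of undifferentiated cells in NONO deltaER libraries, against 5.14, 5.52 and 7% in NONO libraries (exact permutation p = 0.1, the lowest possible with these 6 libraries, adjusted p = 0.717 over 7343 genes). Of these genes 8.36% had every NONO deltaER library higher. The Etv5 difference was 3.06 percentage points, and 0.10 with cells thinned to 1000 UMI. Foxo1 was found in 21.0, 33.2 and 27.7% of cells in NONO deltaER libraries, against 19.6, 17.2 and 24.0% in NONO libraries, with overlap between TD and TC. Sall4 was found in 17, 21.1 and 16.8% in NONO deltaER libraries, against 10.7, 13.1 and 17% in NONO libraries. Lin28a and Ret had lower mean shares in NONO deltaER, with 9.20% and 7.12%, against 10.8% and 7.66% in NONO. This goes against their CPM, so no order is read from those shares. For Lin28a the number of UMI per positive cell was higher in every NONO deltaER library, with 1.98, 2.04 and 1.67, against 1.5, 1.2 and 1.57 in NONO libraries (all UMI of each cell). No other member separated the genotypes in this measure, which does not take depth out. The share of all genes that separate in it was not taken. Without thinning, Foxo1 was found in 46.2, 44.2 and 33.4% of cells in NONO deltaER libraries, against 34.2, 24.3 and 27.9% in NONO libraries. Lin28a was then found in 19.1, 20.8 and 16.3% in NONO deltaER libraries, against 17.1, 14.0 and 12.7% in NONO libraries, and both genes overlap between genotypes. The mean number of members found per thinned cell was 0.965, 1.36 and 1.01 in NONO deltaER libraries, against 0.850, 0.876 and 0.98 in NONO libraries, where TD lay below TC.

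Summed over all cells, more of the members had libraries that did not overlap. Of 9 tested, 7 had a fold change above 0, and Ret, Zbtb16, Etv5, Sall4, Foxo1 and Lin28a had every NONO deltaER library above every NONO library, which 7.77% of all genes showed. No member had them all below, which 3.93% showed. The same 6 had an unadjusted p under 0.05, which 3.24% of all genes had in that direction. Of the 20958 genes tested 0 (0%) passed the adjusted threshold in edgeR, 1257 had an unadjusted p under 0.05, and DESeq2 called 12. Sall4 had 1.93, 2.12 and 1.38 CPM in NONO deltaER libraries, against 0.918, 0.617 and 0.840 CPM in NONO libraries. Its log2 fold change was 1.17 ± 0.22, with an adjusted p of 0.823 in edgeR and 0.0123 in DESeq2, in which it was the only member called. Lin28a had 1.28, 1.65 and 1.23 CPM in NONO deltaER libraries, against 0.927, 0.628 and 0.630 CPM in NONO libraries (log2 fold change 0.91 ± 0.21, edgeR adjusted p = 0.823). Log2 fold changes of Ret, Foxo1, Zbtb16, Etv5 and Gfra1 were 0.62, 0.59, 0.55, 0.40 and 0.24, and those of Id4 and Nanos3 were -0.08 and -0.21. Undifferentiated spermatogonia were 3.58, 4.15 and 4.03% of cells in NONO deltaER libraries, against 3.15, 2.52 and 2.18% in NONO libraries. In sums over all cells, more cells of a class and more RNA per cell cannot be told apart.

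**Figure D3:**
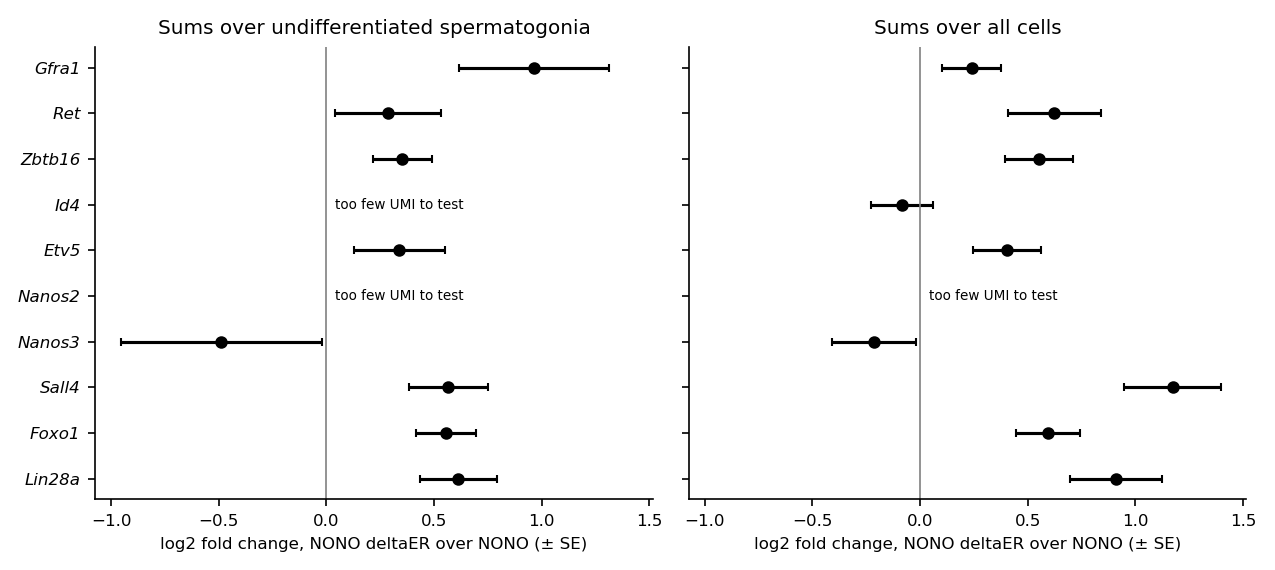
Log2 fold change of each member, NONO deltaER over NONO, in sums over undifferentiated spermatogonia (left) and over all cells (right), with bars of 1 standard error from edgeR. Of the 8 and 9 members tested, 7 lie above 0 on each side. Sall4 is at 0.57 in undifferentiated spermatogonia and 1.17 over all cells, and Gfra1 at 0.97 and 0.24.

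Outside undifferentiated spermatogonia the members could be tested in 43 combinations of gene and class. None passed the edgeR threshold (lowest adjusted p = 0.460), and 25 were above 0. An unadjusted edgeR p under 0.05 was found for 3. They were Foxo1 in Leydig cells (log2 fold change 1.15), Nanos3 in round spermatids of step 3 (-0.83) and Id4 in steps 6-7 (-0.85). The shares of all genes with such a p, or above 0, in these classes are not given here. Over all genes of the 16 classes other than undifferentiated spermatogonia, 19 of 132008 tests passed (0.0144%). Members were tested in 13 of these classes. All 19 passing tests came from preleptotene spermatocytes, where 5818 genes were tested. Of the 19, 10 had a fold change above 0 and 9 below 0. In the rest of the 16 classes no gene passed. Foxo1 was above 0 in 9 of the 11 classes in which it was tested, undifferentiated spermatogonia included, with log2 fold changes of 0.60 ± 0.32 in preleptotene spermatocytes, 0.62 ± 0.33 in differentiated spermatogonia, 0.74 ± 0.38 in Sertoli cells and 1.15 ± 0.49 in Leydig cells (edgeR adjusted p = 0.460, 0.818, 0.960 and 1.00). In preleptotene spermatocytes Foxo1 had 43.7, 60.7 and 66.3 CPM in NONO deltaER libraries, against 37.5, 35.6 and 35.4 CPM in NONO libraries. The classes come from the same libraries and are not independent repeats of the comparison. The share of all genes above 0 in as many classes, or separated in preleptotene spermatocytes, was not taken. The response of Etv5 and Foxo1 in undifferentiated spermatogonia was set against that in Sertoli cells by limma. It differed by 0.28 for Etv5 and -0.10 for Foxo1 on the log2 scale (adjusted p = 0.983 and 0.989). The Etv5 difference was 0.14 without TE and the Foxo1 difference turned to 0.14 without TC. By limma 0 of 8254 genes differed (397 at an unadjusted p under 0.05).

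Within undifferentiated spermatogonia the members were not spread evenly over cells. The number of cells with both genes of a pair was set against the number expected from each gene's share in the same library, on cells thinned to 2000 UMI. Gfra1 and Ret were found together in 36 cells, against 7.03 expected, a ratio of 5.12. Gfra1 and Etv5 were found together in 37 cells (ratio 4.85), and Ret and Etv5 in 30 cells (ratio 5.09). These 3 pairs were above expectation in all 6 libraries. Zbtb16, found in more cells, had ratios of 2.47 with Gfra1, 2.94 with Ret and 2.30 with Etv5. Sall4 with Lin28a had 2.09 and Zbtb16 with Foxo1 1.55. On all UMI of each cell Gfra1 and Ret were together in 100 cells, against 19.2 expected, a ratio of 5.20. These ratios describe the cells and carry no test.

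**Figure D4:**
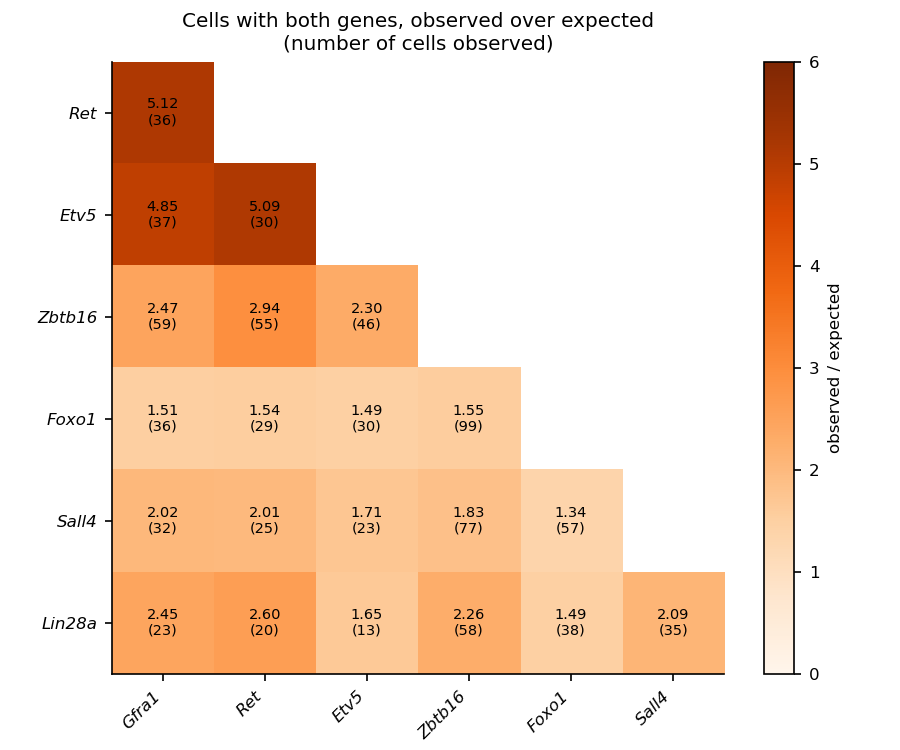
Pairs among Gfra1, Ret, Etv5, Zbtb16, Foxo1, Sall4 and Lin28a in undifferentiated cells thinned to 2000 UMI, as the ratio of cells with both genes to the number expected within libraries, with the observed number of cells in parentheses. The pairs of Gfra1, Ret and Etv5 reach 4.85 to 5.12, while the pairs shown with Foxo1 lie between 1.34 and 1.55.

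The cells with a Gfra1 UMI were compared with the other undifferentiated cells of the same library. They numbered 37, 38 and 30 in NONO deltaER libraries, against 31, 15 and 18 in NONO libraries. Ret averaged 173 CPM in cells with Gfra1 and 14.7 CPM in cells without (means over 6 libraries), a ratio of 11.8. Etv5 averaged 194 and 15.0 CPM, a ratio of 12.9, and Id4 19.2 and 3.69 CPM, a ratio of 5.20. Zbtb16 (ratio 3.88) and Sall4 (3.25) were also higher with Gfra1 in 6 of 6 libraries, as was Foxo1 (1.90). Lin28a (2.30) was higher in 5 of 6 libraries and had 29.7 CPM with Gfra1 and 49.2 CPM without in TB. Kit went the other way, with 73.7 CPM in cells with Gfra1 and 197 CPM in cells without, and was lower with Gfra1 in every library. Stra8 had 153 CPM with Gfra1 and 231 CPM without. Sox3 and Rarg, genes of progenitor spermatogonia, had ratios of 1.15 and 1.14 and were higher in 2 and 3 of 6 libraries. Cells with Gfra1 were also deeper, with median UMI from 4848 to 6645 over the libraries, against 2417 to 4129.5 without. CPM is scaled to depth, and whether depth bears on these ratios beyond that was not tested.

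**Figure D5:**
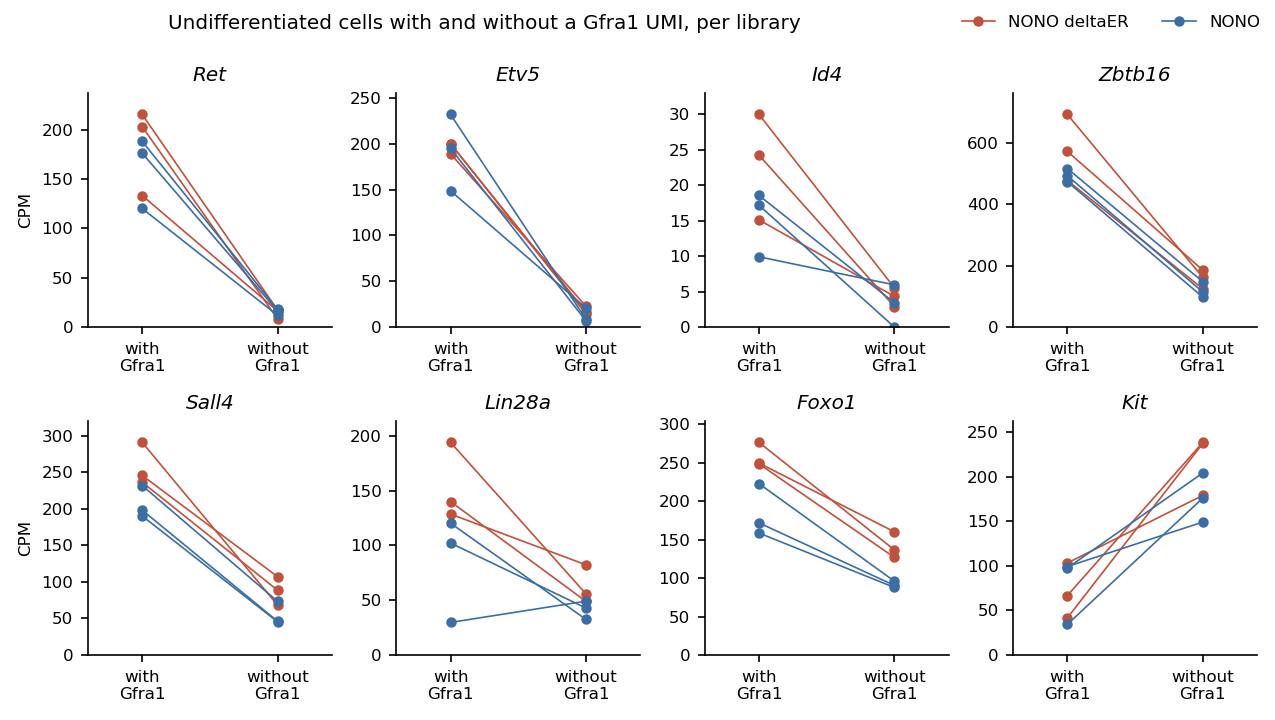
CPM of 8 genes in undifferentiated cells with a Gfra1 UMI (left of each panel) and without (right), with 1 line per library, coloured by genotype. Ret, Etv5, Id4, Zbtb16, Sall4 and Foxo1 are higher with Gfra1 in all 6 libraries, Lin28a in 5, and Kit is lower in all 6.

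The Gfra1 UMI themselves were unevenly shared among positive cells. Gfra1 UMI per positive cell were 4.27, 4.18 and 1.97 in NONO deltaER libraries, against 1.94, 2.27 and 2.33 in NONO libraries. Cells with at least 5 Gfra1 UMI numbered 10, 9 and 3 in NONO deltaER libraries, against 3, 3 and 3 in NONO libraries, and they held 68.4, 64.8 and 25.4% of the Gfra1 UMI of the class in NONO deltaER libraries, against 28.3, 47.1 and 50% in NONO libraries. The highest cell had 27 Gfra1 UMI, in TE. The libraries TD and TE, with the highest Gfra1 CPM, were also those with the most such cells. For Foxo1 every NONO deltaER library lay above every NONO library in both kinds of cell. Cells with Gfra1 had 277, 250 and 249 CPM of Foxo1 in NONO deltaER libraries, against 223, 159 and 172 CPM in NONO libraries. Cells without Gfra1 had 137, 160 and 127 CPM in NONO deltaER libraries, against 96.0, 87.9 and 90.5 CPM in NONO libraries. Foxo1 also separated in the class as a whole, which these cells make up, so this is no separate result. Of the other members in this comparison, Sall4 and Lin28a separated in cells with Gfra1 only. The share of all genes that separate in these cells was not taken.

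Other genes of the pathway were taken from lists of ligands, receptors, factors and partners. None of these genes passed the edgeR threshold in undifferentiated spermatogonia, and Rb1 and Dmrtb1 were among those with an unadjusted p under 0.05. For the counts below, the share above 0 was 51.6% over all genes tested. It was 88.2% in the set of other genes at least 5-fold higher in this class, which was chosen by levels in these libraries. Of 14 receptors and surface markers tested 13 were above 0 (median log2 fold change 0.18), including Itgb1 (0.02), Sdc4 (0.10), Kit (0.15) and Ptk7 (0.31). Of 8 other stem cell factors 6 were above 0, with Rb1, a cell cycle regulator needed for stem cell renewal, at 0.51 ± 0.15 (edgeR adjusted p = 0.136). Rb1 had 121, 106 and 97.9 CPM in NONO deltaER libraries, against 69.5, 75.1 and 74.1 CPM in NONO libraries. Taf4b, Bmi1 and Egr4 had log2 fold changes of 0.19, 0.03 and -0.16. Of 6 progenitor factors 4 were above 0, with Uchl1 at 0.18, Rarg at 0.29, Crabp1 at 0.12 and Sox3 at -0.06. Of 10 differentiation factors 7 were above 0, with Stra8 at 0.33 and Dmrt1 at 0.08. Dmrtb1, a DM-domain factor of the step from mitosis to meiosis, was the nearest to the threshold, with 163, 200 and 177 CPM in NONO deltaER libraries, against 256, 298 and 302 CPM in NONO libraries. Its log2 fold change was -0.73 ± 0.13 with an edgeR adjusted p of 0.0578, and its highest class was Round ST(Step 1-2), with 1164 CPM. Of 12 partners of NANOS and LIN28 proteins 9 were above 0, with Pum2 at 0.22, Tut4 at 0.09, Ddx6 at 0.04 and Cnot1 at -0.07. Of 9 relatives of the members 8 were above 0, with Sall1 at 0.14, Foxo3 at 0.28, Lin28b at 0.22 and Zbtb32 at 0.35.

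Gdnf and Kitl were highest in somatic classes, and the other ligands named here in the class named Unknown. Nrg1 had 29.0 CPM in that class and 27.8 CPM in undifferentiated spermatogonia. Some listed ligands that are not named here were highest in germ cell classes. Gdnf, the ligand of GFRA1 and RET, had 31 UMI in Sertoli cells (5.90 CPM, its highest class), 10 in undifferentiated spermatogonia and 222 in all cells. Gdnf is named outside that rule, with its values known. In Sertoli cells it had 5.91, 13.8 and 1.32 CPM in NONO deltaER libraries, against 6.49, 5.02 and 2.83 CPM in NONO libraries. Kitl, the ligand of KIT, was highest in Leydig cells (341 CPM), and Csf1, Cxcl12 and Igf1 in the class named Unknown (319, 235 and 531 CPM). None of these 5 ligands had enough UMI to be tested in undifferentiated spermatogonia. Of all 13 listed ligands 1 had, Nrg1, with a log2 fold change of -0.24 (edgeR adjusted p = 0.720), which is also named outside that rule.

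The 3 genes with the class profile most like each member were found by Pearson correlation of log2(CPM + 1) over the 17 classes, among 15684 genes. Ret was most like Pramef12 (0.99), Foxi3 (0.99) and Rspo2 (0.97), all highest in undifferentiated spermatogonia. Sall4 was most like Rspo4 (0.97), Crabp1 (0.96) and Cbx2 (0.95), and Lin28a most like Trim71 (0.92), Foxi3 (0.92) and Rspo4 (0.91). Gfra1 was most like Large2 (0.92), Lingo1 (0.89) and Tox3 (0.85). Zbtb16 was most like B4galt4, Klhl13 and Plxnd1 (0.95 to 0.96), and Foxo1 most like Elk4, Rock2 and Prmt9 (0.97 each). Etv5 was most like Cd99l2, AI506816 and Usp27x (0.98 each), which are highest in Sertoli cells. Id4 was most like 4933404O12Rik, Exoc8 and Gm21284 (0.94 to 0.95), all highest in leptotene to early pachytene spermatocytes. Nanos3 was most like Unc5d (0.93), Mutyh (0.91) and Aimp2 (0.89), and Nanos2, on 5 UMI, most like Foxi3, Pramef12 and Nkx1-1. Classes share libraries and differ in depth, and these values describe likeness only.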

How the data were processed

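Testis cells were profiled by the 10x Genomics single cell 3′ v2 method, per the labels' protocols. The submitters' processing notes name Cell Ranger 2.1.1 and the build mm10. The authors deposited UMI counts per gene and cell, cell classes and a mitochondrial percent per cell. How cells were filtered and doublets treated before deposit is not stated there. Every cell had at least 500 UMI and 201 genes, and no doublet caller was run. Libraries hold 6261 to 8909 cells, with median depths of 7930 to 9294 UMI per cell.

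Counts were summed per library and class and tested with edgeR 4.0.16 (quasi-likelihood, TMM factors, filterByExpr, Benjamini-Hochberg adjustment over all genes tested, threshold 0.05) in R 4.3.3. The response in Sertoli cells was set against that in undifferentiated spermatogonia with limma 3.58.1 on log2 CPM ratios with a prior of 1 CPM. Positive-cell shares were taken after thinning to 2000 UMI and tested by exact permutation of 6 libraries. Class levels, likeness and co-detection are descriptions. DESeq2 1.42.0, filters, cell selections, library sets and leaving out each library were alternatives. The scripts were tested on simulated data. Promoters came from RefSeq (GRCm38.p6) for 7 members, and gene positions from the mm10 annotation given. Genes named beside the members are the 4 most expressed of each pathway list, any list gene past the threshold, and the 3 genes most like each member. Class markers, genes of the Gfra1 comparison, Gdnf and Nrg1 are named outside it. The values of 1 pathway gene are not reported here. Members and lists were chosen with earlier results of these data known.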

Additional observations from a re-analysis of the deposited data

How the results depend on the processing

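Of 26 single values under 277 alternatives, 256 kept direction and side of the threshold, 8 passed it and 13 turned direction. In undifferentiated spermatogonia 3 genes passed in edgeR. DESeq2 gave 228, no filter on low counts 825 and leaving out the top 5% of cells by UMI 187, while the library set as covariate, cells with at least 1000 UMI and equal cell numbers gave 0. Leaving out 1 library gave 0 to 634, with 634 without TF, 594 without TA and 0 without any other. Members that passed there, and over the 17 classes, numbered 0. They numbered 4 with no filter and 0 to 2 with 1 library left out (2 without TF, 1 without TA). Over all cells 0 genes passed in edgeR, 12 in DESeq2 and 0 to 4 with 1 library left out (4 without TF), and 0 members passed in edgeR and 1 in DESeq2. Members with non-overlapping positive-cell shares numbered 1, and 1 to 3 with 1 library left out (3 without TD, 3 without TC, 2 without TF). Fewer libraries separate more easily, and the share of all genes that separate with 1 library left out was not taken. Of the 30 most alike genes 4 were shared with the Spearman choice. Id4 over all cells was -0.08, and -0.19 to 0.046 with 1 library left out. The Ret share difference was -0.55 points, 1.71 without thinning, 1.31 at 2 UMI or more, and -1.62 to 0.62 with 1 library left out. The Lin28a share difference was -1.63 points, 1.75 at 1000 UMI, 4.11 without thinning and 1.00 at 2 UMI or more. The Etv5 difference of response was 0.28, and 0.14 to 0.41 with 1 library left out. The Sall4 share difference was 4.67 points and -1.17 at 2 UMI or more. The Foxo1 difference of response was -0.10, 0.026 with a prior of 5 CPM, and -0.23 to 0.14 with 1 library left out. The cause was not tested. Depth limits Nanos2, Id4 and Nanos3 most, on 2, 45 and 46 UMI in undifferentiated spermatogonia. No paired analysis was possible because the deposited columns do not carry the replicate numbers of the labels.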
